A study of Mus musculus with 614 samples.

Results

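CD115-negative common dendritic cell progenitors (CDP) were compared with SiglecH+Ly6C- dendritic cell precursors (pre-DC), both sorted from the bone marrow of untreated adult C57BL/6J mice aged 7 to 10 weeks. The members were taken from the sort labels alone. They were 58 CDP and 70 pre-DC, 128 of the 614 single cells of a series with 12 sort gates. The CDP gate was lineage-negative, CD11c-, MHCII-, Flt3+, c-Kit intermediate, CD115- and IL7R-. The pre-DC gate was lineage-negative, CD11c+, MHCII-, Flt3+, CD172α-, B220-, SiglecH+ and Ly6C-. The labels give no altered allele, transgene or agent for either group, and the number of animals behind each gate is unknown. The series title places the origin of plasmacytoid dendritic cells (pDC) in Ly6D+ lymphoid progenitors, and the 2 gates were compared within that question.

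CDP are Flt3-dependent marrow progenitors that give rise to dendritic cells, and pre-DC are their CD11c+ successors, still without surface MHC class II. pDC are specialised in producing type I interferon and depend on the transcription factor Tcf4 (E2-2), helped by Spib, Irf8 and Runx2. Conventional dendritic cells (cDC), the other branch, present antigen to T cells, and Id2, Batf3 and Zbtb46 are among the factors linked to them. Whether pDC share their precursors with cDC or with lymphoid cells is the question in which Ly6d, a surface protein of lymphoid progenitors, and Dntt, the template-independent DNA polymerase of early lymphocytes, serve as markers.

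Each cell was its own library of full-length cDNA, and values were TPM, abundances scaled for transcript length and for the total of the cell. Read counts cannot be recovered from TPM, and the sequencing depth is therefore unknown. A median of 5208 genes was found at 1 TPM or more in CDP (range 3606 to 7140) and of 4983 in pre-DC (3246 to 6596), and mitochondrial transcripts made up a median of 8.72% and 6.71%. No 2 cells held identical values and no library label was used more than once. No label names an animal, so each gate counts as 1 sample. The values below are therefore descriptions without p-values, and all SDs are over cells. Library numbers formed runs: all 58 CDP came from a run shared with 24 pDC, while 51 pre-DC shared a run with SiglecH+Ly6C+ pre-DC (run 1) and 19 shared one with SiglecH-Ly6C- pre-DC (run 2). Gate and run cannot be told apart for CDP. Values are given for each pre-DC run, and the 24 pDC serve as a reference from the same run as CDP.

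The difference used throughout is the pre-DC mean minus the CDP mean of log2(TPM + 1), with a pseudocount of 1. On that scale 1 unit is a doubling and changes of low genes are understated. A mean of logs also reflects the share of cells with a gene. It can therefore be larger or smaller than the difference on the log2 of the mean TPM. A gene was counted as past the fold when the difference was 2 or more in size, or 4-fold on that scale of mean logs. A gene counted as measured when 10% or more of the cells of one gate or the other had 1 TPM or more. For a gene that passed through 1 gate alone, the direction was largely set by this filter. Of 13171 measured genes, 87 were higher in pre-DC past the fold (0.661%) and 124 were lower (0.941%), together 211 (1.6%). The higher genes were 41.2% of those past the fold, and 57.7% with a pseudocount of 10. The typical gene differed little: the median difference was -0.02 and the median size 0.32. Against CDP, 0.759% of genes were higher and 1.09% lower in run 1 (1.85% in all), and 1.28% were higher and 1.39% lower in run 2 (2.67% in all). Between the 2 runs of the pre-DC gate itself 0.197% were higher and 0.425% lower in run 1, a total of 82 genes (0.623%).

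The genes with the largest differences are described below by role, and the stretches upstream of a few of them are shown first because several of these genes are known interferon or myeloid genes. RefSeq promoters (GRCm38.p6, the 250 bases before the start) were available for 8 of the 12 genes with the largest excess in pre-DC and for 8 of the 12 with the largest deficit. The interferon response motif, searched on both strands, with overlaps allowed, as GAAA followed after any 2 bases by another GAAA, was found upstream of 3.46% of 27025 genes. It was found in 4 of the 8 genes higher in pre-DC (Cybb, Bst2, Cd300c and Rnase6) and in 3 of the 8 lower ones (Dhrs3, Ifitm2 and Srgn). A gene with several listed starts counted when any of its windows held a match, here and for all genes. Rnase6 has 3 listed starts, 2 with a match, and Srgn has 2, 1 with a match; the windows shown are ones with a match. The motif thus occurred upstream of genes of both directions. The motifs were chosen after values were seen, and a match describes letters, not a site in use. The sequences below run 5′ to 3′ on the strand of the gene with matches in capitals, and end 1 base before the start. Their positions are chrX:9469325-9469574 on the minus strand for Cybb, chr8:71537473-71537722 minus for Bst2, chr11:114960508-114960757 minus for Cd300c, chr14:51128787-51129036 plus for Rnase6 and chr10:62507758-62508007 minus for Srgn, the one gene of the 5 that was lower in pre-DC.
Cybb: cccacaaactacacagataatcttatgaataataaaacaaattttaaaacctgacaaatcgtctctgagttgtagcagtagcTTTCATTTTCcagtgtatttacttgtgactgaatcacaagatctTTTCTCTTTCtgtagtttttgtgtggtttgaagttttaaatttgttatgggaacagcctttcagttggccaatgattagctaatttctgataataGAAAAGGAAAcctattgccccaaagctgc
Bst2: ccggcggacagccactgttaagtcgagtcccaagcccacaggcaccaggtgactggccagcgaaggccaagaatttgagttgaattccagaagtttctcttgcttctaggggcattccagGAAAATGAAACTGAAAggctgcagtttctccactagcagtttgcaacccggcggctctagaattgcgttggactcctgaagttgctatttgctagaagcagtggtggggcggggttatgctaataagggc
Cd300c: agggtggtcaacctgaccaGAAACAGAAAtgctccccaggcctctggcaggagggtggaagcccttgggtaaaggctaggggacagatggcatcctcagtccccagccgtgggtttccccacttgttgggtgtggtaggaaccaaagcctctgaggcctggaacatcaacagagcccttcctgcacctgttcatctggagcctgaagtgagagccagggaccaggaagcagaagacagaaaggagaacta
Rnase6: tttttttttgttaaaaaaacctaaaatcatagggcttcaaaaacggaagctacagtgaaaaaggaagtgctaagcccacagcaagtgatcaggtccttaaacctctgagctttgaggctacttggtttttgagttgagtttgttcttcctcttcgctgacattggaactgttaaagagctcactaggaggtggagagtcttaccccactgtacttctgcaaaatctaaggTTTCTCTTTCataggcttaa
Srgn: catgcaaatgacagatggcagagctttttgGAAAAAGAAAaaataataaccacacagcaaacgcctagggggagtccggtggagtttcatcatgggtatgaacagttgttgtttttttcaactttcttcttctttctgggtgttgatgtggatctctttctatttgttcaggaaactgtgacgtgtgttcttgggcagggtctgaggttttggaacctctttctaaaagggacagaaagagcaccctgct

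In Cybb the motif occurred 3 times, in Bst2 as 2 overlapping copies and in the other 3 genes once. Other motifs were near the share over all genes or rested on few promoters. The interferon response motif rested on the same few promoters. The E-box CANNTG, the class of site that Tcf4 and other E proteins bind, was upstream of 69.3% of all genes, of 6 of the 8 higher genes and of 5 of the 8 lower ones. The Runx motif TGTGGT was upstream of 15.9% of all genes, of 3 of 8 higher genes, 2 of 8 lower genes and 5 of 14 pDC genes. The SpiB/PU.1 motif GAGGAA was upstream of 25.9% of all genes and of 2 of 8 higher and 1 of 8 lower genes. The cAMP response motif TGACGTCA was upstream of 1.77% of all genes, 0 of 8 higher and 0 of 8 lower genes. It was upstream of 2 of 11 immediate-early genes, described below. The CArG box was upstream of 1.62% of all genes, 0 of 8 higher, 1 of 8 lower and 1 of 11 immediate-early genes.

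Of the 5 markers of the comparison, 4 were higher in pre-DC and Satb1 was higher in CDP. Ly6d (chr15:74762056-74763620, minus strand, GRCm38) ran from 0 to 14503 TPM in CDP with a median of 6.88, and from 0 to 23429 TPM in pre-DC with a median of 4791. The gates overlapped up to the highest CDP value, and 17 of 58 CDP (29.3%, exact Clopper-Pearson 95% interval 18.1 to 42.7) and 62 of 70 pre-DC (88.6%, 78.7 to 94.9) had 100 TPM or more. The mean log2(TPM + 1) of Ly6d was 4.86 ± 4.44 (SD, n = 58 cells) and 10.80 ± 3.59 (n = 70 cells), a difference of 5.94. The difference was 6.43 for run 1 and 4.63 for run 2. In the pDC from the run of CDP the Ly6d mean was 10.80 ± 3.18 and 91.7% had 100 TPM or more. At 1 TPM the shares of cells with Ly6d were 87.9% in CDP and 95.7% in pre-DC. Most CDP thus held Ly6d transcripts at low values, in a run shared with pDC, whose Ly6d median was 2512 TPM; the part of that shared run in the low values was not tested. Intervals cover counting error only.

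Cd7, a surface glycoprotein of T, NK and pDC lineage cells, showed the largest difference of any gene that the naming rule takes. Cd7 (chr11:121036747-121039418, minus strand) ran from 0 to 1888 TPM in CDP with a median of 0, and from 0 to 5025 TPM in pre-DC with a median of 833.7. It reached 100 TPM in 13 of 58 CDP (22.4%, 12.5 to 35.3) and 60 of 70 pre-DC (85.7%, 75.3 to 92.9). The Cd7 difference was 6.36, with 6.29 in run 1 and 6.55 in run 2, so the 2 pre-DC runs lay close together. The pDC mean of Cd7 was 6.59 ± 3.87, between the CDP mean of 2.60 ± 3.59 and the pre-DC mean of 8.96 ± 2.59. On the log2 of the mean TPM the Cd7 difference was 3.13, since the CDP mean was 126.5 TPM against the median of 0.

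Runx2 (chr17:44495987-44814797, minus strand), the Runx factor known for a role in pDC exit from the marrow, differed less. Its median was 144 TPM in CDP (0 to 1282) and 370 TPM in pre-DC (0 to 1917), and 58.6% of CDP against 82.9% of pre-DC reached 100 TPM. The Runx2 difference of 1.76 was not past the fold. It was 2.12 in run 1 and 0.79 in run 2, and the run 1 minus run 2 gap of 1.33 within the pre-DC gate was larger than the run 2 difference. The other Runx genes were near equal, Runx1 at 0.14 and Runx3 at -0.28.

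Siglech (chr7:55768178-55778925, plus strand), the endocytic receptor on which pre-DC were sorted, is a check of the gate and no finding. It had a median of 4.26 TPM in CDP (0 to 2399) and 1187 TPM in pre-DC (0.72 to 4865), and reached 100 TPM in 31.03% and 87.1% of cells. CDP were not sorted on SiglecH, and 18 of the 58 reached that level. The Siglech difference was 5.40 in run 1 and 5.28 in run 2.

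Satb1 (chr17:51736187-51833290, minus strand), a chromatin organiser of early lymphoid cells, ran the other way. It had a median of 135 TPM in CDP (0 to 2964) and 2.17 TPM in pre-DC (0 to 970.6), and 53.4% of CDP but 22.9% of pre-DC reached 100 TPM. The Satb1 difference was -2.90, with -2.68 in run 1 and -3.50 in run 2. The pDC of the CDP run, at a Satb1 mean of 2.08 ± 2.44, were on the side of pre-DC (3.27 ± 3.31) and below CDP (6.17 ± 3.15).

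**Figure D1:**
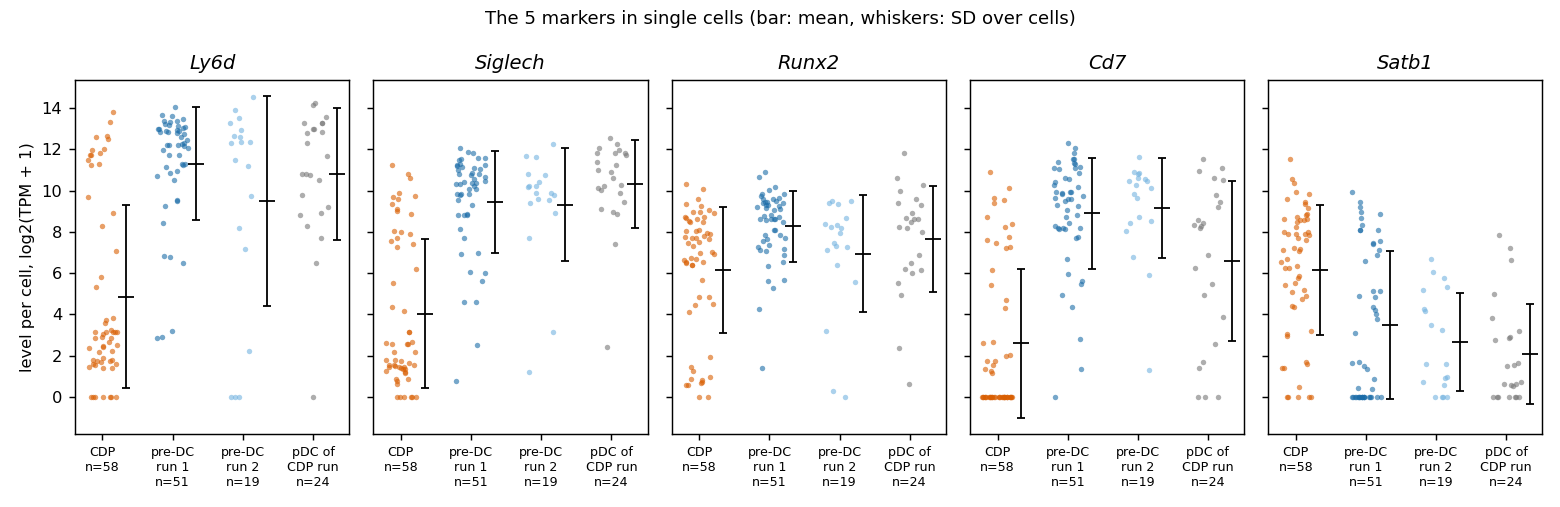
Level of the 5 markers in every cell as log2(TPM + 1), 1 point per cell, for CDP (58 cells), the pre-DC of run 1 (51) and run 2 (19) and the pDC of the CDP run (24), with the mean and SD over cells. Ly6d, Siglech and Cd7 are high in most pre-DC of both runs and in a minority of CDP, whereas Satb1 is higher in CDP.

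The 4 markers that were higher in pre-DC were also counted within single cells at 100 TPM. In CDP 17 cells had 0 of the 4, 20 had 1, 7 had 2, 8 had 3 and 6 had all 4. In pre-DC the same numbers were 1, 3, 3, 20 and 43. Thus 14 of 58 CDP (24.1%, 13.9 to 37.2) and 63 of 70 pre-DC (90%, 80.5 to 95.9) had 3 or 4 markers. The share was 92.2% in run 1, 84.2% in run 2 and 79.2% in the pDC of the CDP run. One of the 4, Siglech, is a sort marker of the pre-DC and is no finding. In a count without it, added after the values were seen, 17 of 58 CDP (29.3%, 18.1 to 42.7) and 65 of 70 pre-DC (92.9%, 84.1 to 97.6) had 2 or 3 of Ly6d, Runx2 and Cd7, and 7 CDP and 47 pre-DC had all 3. At 1 TPM the shares with 3 or 4 of the 4 markers were 75.9% of CDP and 98.6% of pre-DC, so the gap depends on the threshold. Cells of 1 gate are not independent samples, and the intervals cover counting error only.

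Some pairs of markers met in the same CDP more often, at 100 TPM, than the product of their single shares, and others did not. Ly6d and Cd7 were both at that level in 8 of 58 CDP (13.8%, against a product of 6.57%) and in 54 of 70 pre-DC (77.1%, product 75.9%). Siglech and Cd7 met in 9 CDP (15.5%, product 6.95%), but at 1 TPM they met in 37.9% against a product of 38.5%. Ly6d and Runx2 met in 22.4% of CDP (product 17.2%). Ly6d met the lymphoid polymerase transcript Dntt in 8 CDP (13.8%, product 17.7%), while 27 CDP had Dntt without Ly6d. All 13 pre-DC with Dntt at that level had Ly6d too (18.6%, product 16.4%), in a gate where 88.6% of cells had Ly6d. For the progenitor surface protein Cd34, 5 CDP had it with Ly6d (8.62%, product 16.2%) and 27 without, against 4 (5.71%, product 5.06%) and 0 in pre-DC. These joint counts are small and were not tested.

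**Figure D2:**
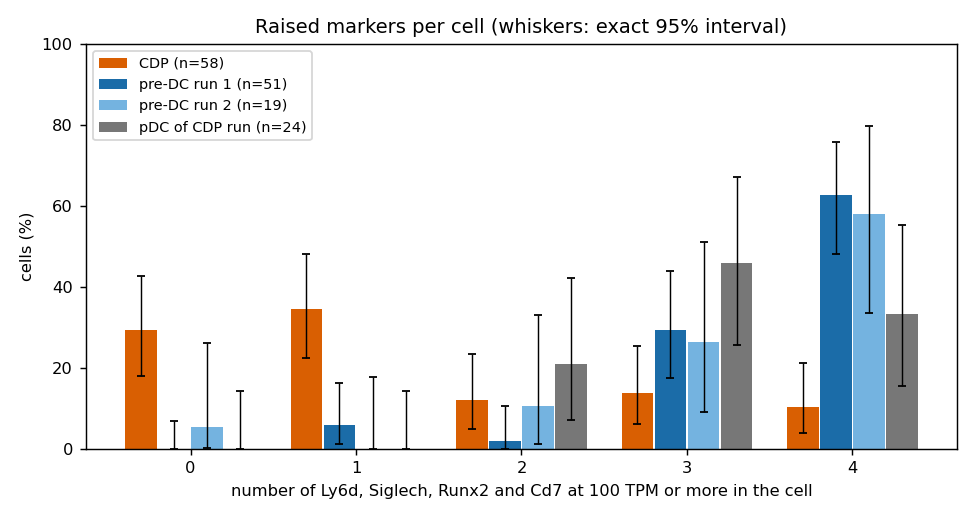
Share of cells (percent) with 0, 1, 2, 3 or 4 of the markers Ly6d, Siglech, Runx2 and Cd7 at 100 TPM or more, for CDP, the pre-DC of each run and the pDC of the CDP run. Siglech is a sort marker of the pre-DC gate. CDP peak at 1 marker (20 of 58 cells) and pre-DC at 4 (43 of 70 cells).

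Among the 12 genes with the largest excess in pre-DC, mean levels ran from 0.75 to 5.42 in CDP, from 4.47 to 10.80 in pre-DC and from 5.65 to 10.80 in the pDC of the CDP run. Their differences lay between 3.30 and 6.43 in run 1 and between 3.58 and 6.55 in run 2. Besides Cd7 and Ly6d they fell into innate defence, lysosomal and other genes. Cybb, the gp91 subunit of the phagocyte NADPH oxidase, had a median of 0.28 TPM in CDP (0 to 390) and 131 TPM in pre-DC (0 to 2787). It was at 1 TPM or more in 22.4% of CDP and 81.4% of pre-DC, and only 1 CDP reached 100 TPM. Its difference of 5.17 was 5.17 in run 1 and 5.19 in run 2. Bst2, the tetherin that marks pDC and holds back budding viruses, had a median of 0.80 TPM in CDP (0 to 1457) and 329 TPM in pre-DC (0 to 2574), a difference of 4.86. The Bst2 mean in pDC, 7.01 ± 3.73, was close to that of pre-DC at 7.62 ± 2.88.

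Cathepsins and a ribonuclease made up the endolysosomal members of that group. Ctsb, a lysosomal cysteine protease, had a median of 66.8 TPM in CDP (0 to 1672) and 579 TPM in pre-DC (4.39 to 3255), and 94.3% of pre-DC against 46.6% of CDP reached 100 TPM. Its difference of 3.63 was alike in the runs, 3.65 and 3.58. Ctsh, an aminopeptidase of the same family, differed by 4.08 (3.71 and 5.06 in runs 1 and 2). Rnase6, a secreted RNase A family member, differed by 3.58 and was at 1 TPM or more in 87.9% of CDP and in 100% of pre-DC. Cd300c, of the CD300 family of surface receptors, differed by 3.62 (3.30 and 4.47). The remaining members were Tex2 at 4.78, Nucb2, a calcium-binding protein of the secretory pathway, at 3.76, and Rexo2, an oligoribonuclease, at 3.64. Spib at 3.72 is described with the regulators. On the log2 of the mean TPM 8 of the 12 remained past the fold, without Ctsb, Rnase6, Nucb2 and Rexo2.

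The 12 genes with the largest deficit had mean levels from 4.12 to 9.21 in CDP, from 0.05 to 5.19 in pre-DC and from 0.40 to 5.90 in the pDC of the CDP run. Progenitor, lymphoid, myeloid granule and immediate-early genes were among them. Serpinb1a, an inhibitor of neutrophil serine proteases, had the largest deficit among the named genes at -5.35. Its median was 133 TPM in CDP (0 to 1131) and 0 in pre-DC (0 to 467.5), and 86.2% of CDP against 15.7% of pre-DC had 1 TPM or more. Dntt had a median of 818.2 TPM in CDP (0 to 9400) and 0 in pre-DC (0 to 1368), a difference of -5.12 with -5.15 and -5.05 in the runs. Cd34 had a median of 142 TPM in CDP (0 to 2061) and 2.62 TPM in pre-DC (0 to 241.6), a difference of -3.92.

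Mpo, the myeloperoxidase of granulocyte and monocyte precursors, was high in some CDP and in no pre-DC or pDC of the CDP run. It reached 100 TPM in 20 of 58 CDP (34.5%, 22.5 to 48.1) and in 0 of 70 pre-DC, which allows a share of up to 4.29%. The highest pre-DC had 1.36 TPM, while CDP ran to 3978.2 TPM. In the pDC of the CDP run Mpo was at 1 TPM or more in 70.8% of cells but never above 6.79 TPM. The Mpo difference was -4.07, with -4.08 and -4.05 in the runs. The other members were Ifitm2 at -4.92, an antiviral membrane protein with close copies in the genome, Dhrs3, a retinal reductase, at -4.20 (-3.71 and -5.54), Srgn, the granule proteoglycan serglycin, at -4.02, and the adhesion receptor Gpr97 at -3.86. Ifitm2 and Serpinb1a belong to families of similar copies, so their values depend on how reads were assigned among them. Srgn and Gpr97 were no longer past the fold on the log2 of the mean TPM. Egr1, Zfp36, Dusp2 and Ccnd2 are taken up below.

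**Figure D3:**
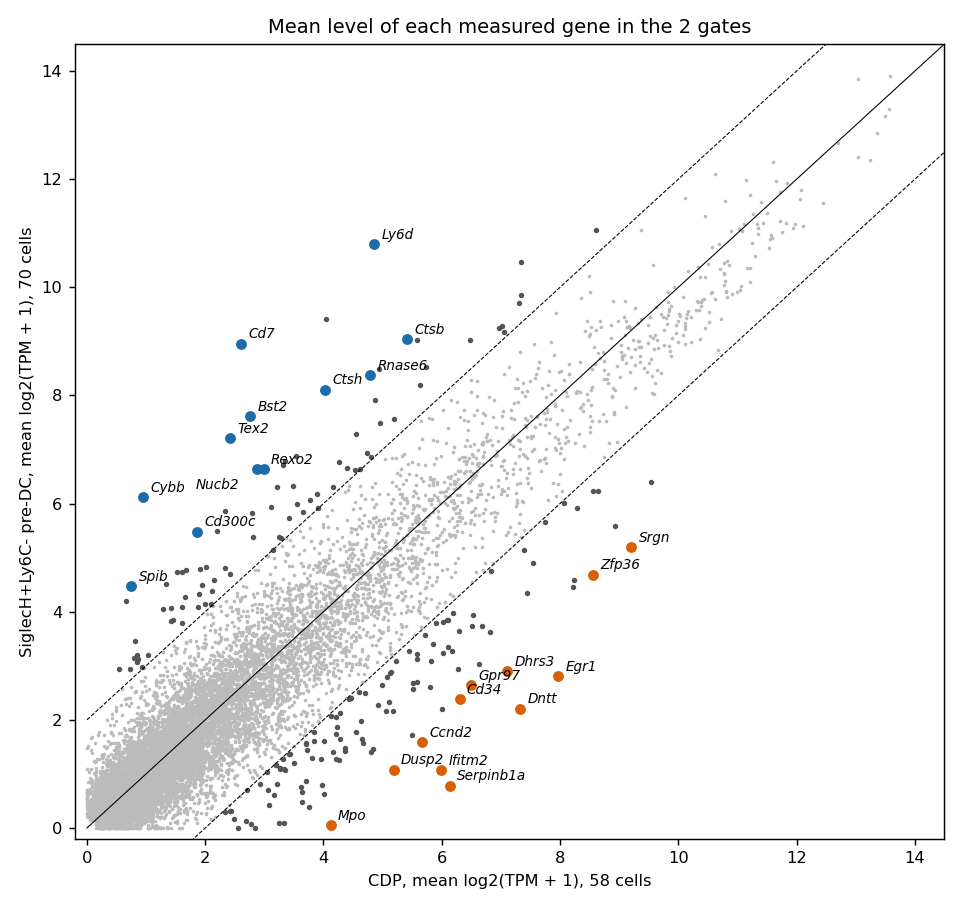
Mean log2(TPM + 1) of each of 13171 genes in CDP (x axis, 58 cells) and in pre-DC (y axis, 70 cells), with the line of equality and dashed lines at a difference of 2. Grey and black points lie inside and past the fold, and the 12 largest differences in each direction are coloured and named; 87 genes lie above the upper dashed line and 124 below the lower one.

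**Figure D4:**
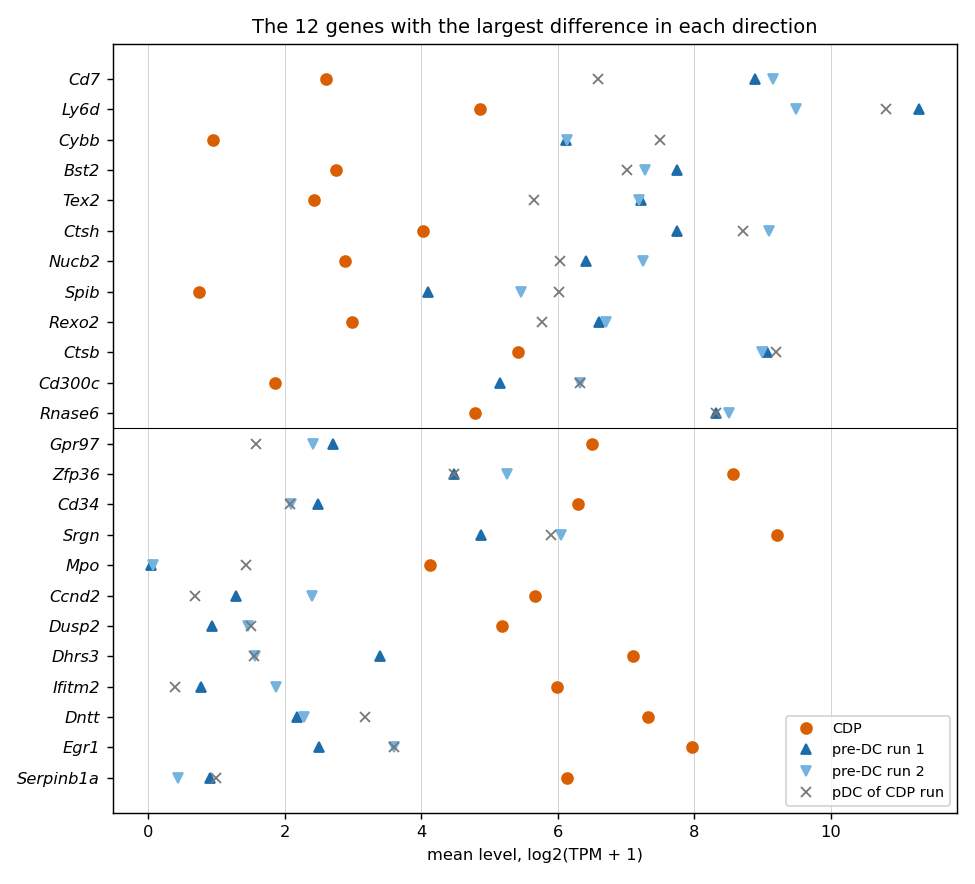
Mean log2(TPM + 1) of the 24 genes with the largest differences in CDP, the pre-DC of run 1, the pre-DC of run 2 and the pDC of the CDP run, 1 row per gene. Both pre-DC runs lie on the same side of CDP in every row, a condition for being named.

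Among transcription factors, Spib, Irf8 and Tcf4 were higher in pre-DC past the fold, while Myc, Satb1 and Myb were lower. Of 40 regulators listed, 31 passed the filter on low values; 15 were higher and 16 lower, with a median difference of -0.18 against -0.02 for all genes. Of these, 3 were higher past the fold (0.661% of all genes) and 3 were lower (0.941%). With a pseudocount of 10, 2 were higher past the fold (Spib and Irf8) and 0 lower, and of the 6 only Spib and Myc remained past the fold on the log2 of the mean TPM. Spib, an Ets factor needed for pDC function, had a median of 0 in CDP (0 to 151 TPM) and 16.9 TPM in pre-DC (0 to 1083), and was at 1 TPM or more in 20.7% and 81.4% of cells. Its difference was 3.72, with 3.36 in run 1 and 4.71 in run 2. Irf8, required at several steps of dendritic cell development, was high in both gates, with medians of 364 TPM (0 to 2339) and 1113 TPM (0.53 to 3547), and differed by 2.51. Tcf4 had medians of 215 TPM (0 to 1216) and 789.4 TPM (0.74 to 3263). Its difference of 2.28 was 2.60 in run 1 and 1.42 in run 2, so in run 2 alone Tcf4 was not past the fold.

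Zeb2, which acts with Tcf4 in pDC, lay just outside at 1.99. The E protein Tcf12 differed by 1.17, while Tcf3 differed by -0.38. Bcl11a, needed for pDC and B cell development, was at 93.1% and 92.9% of cells with a difference of 0.53, and the interferon master factor Irf7 differed by 0.66. The regulators lower past the fold were Myc at -3.23, Satb1 at -2.90 and Myb at -2.26. Myc, a driver of growth, was at 1 TPM or more in 60.3% of CDP and 4.29% of pre-DC, and was listed at 0 in all 51 pre-DC of run 1. Myb, a factor of haematopoietic progenitors, had means of 6.11 ± 2.54 in CDP and 3.85 ± 2.98 in pre-DC.

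Id2, Zbtb46 and Nfil3, listed here for the other dendritic branch, were not past the fold, and neither were the further regulators named below. Id2, the E protein inhibitor of cDC, differed by -0.28, with opposite signs in run 1 (-0.46) and run 2 (0.22). Zbtb46, a cDC marker, differed by 0.27 and was at 1 TPM or more in 17.2% of CDP and 27.1% of pre-DC. Nfil3 differed by -0.40 and the E protein inhibitor Id3 by -0.44. Spi1 (PU.1), of myeloid and lymphoid progenitors, differed by -1.13, and Irf1 by -1.49, at 84.5% of CDP and 51.4% of pre-DC. Notch1 differed by -0.86.

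Gene lists put these genes in their groups. The lists were compiled with earlier results of these data known, so a list's count describes its members and is no independent evidence. Of 21 pDC genes 20 passed the filter, and 20 were higher in pre-DC, 9 past the fold (0.661% of all genes). Their median difference was 1.90 (2.09 in run 1 and 1.45 in run 2) against -0.02 for all genes. Tlr7 and Tlr9, the nucleic acid sensors of pDC, were the lowest members at 0.04 and 0.05, and both were negative in run 2, at -0.14 and -0.36. Tlr7 also turned negative with a pseudocount of 0.1 and on the log2 of the mean TPM. The mean over the list in each cell had a median of 2.51 in CDP, 5.55 in pre-DC and 5.94 in the pDC of the CDP run. Only 2 of 58 CDP lay above the pre-DC median and only 2 of 70 pre-DC below the CDP median. The pDC list holds the markers Ly6d, Cd7 and Runx2. It also holds Cybb, Bst2, Tex2, Spib and Cd300c, named for their large excess, so this separation restates that choice in part. Pacsin1, with a CDP mean of 0.01, passed the filter through pre-DC alone. Of 14 Toll-like receptor pathway genes 7 passed, with a median of 0.05. Their median was 0.20 in run 1 and -0.36 in run 2, where 2 of the 7 were higher and 5 lower. The trafficking chaperone Unc93b1 led the list with 1.74.

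Multipotency genes formed the opposite group. Of 18 listed 14 passed the filter, and 14 were lower in pre-DC with a median of -1.57 (-1.39 and -1.66). Hlf (at 0 in all pre-DC), Mecom and Tal1 were among those that passed through CDP alone. Over all multipotency genes in the file the median was -1.36. Past the fold (0.941% of all genes) were 5: Cd34, the adhesion receptor Gpr56 at -2.77, the homeobox factor Meis1 at -2.68, Egfl7 at -2.67 and Myb. Hoxa7 at -0.39 turned positive in run 2 (0.17). The list mean per cell had a median of 2.86 in CDP, 1.05 in pre-DC and 0.82 in pDC. Of 12 early lymphoid genes 10 passed, 9 lower and 1 higher, with a median of -1.30 (-1.21 and -1.57). Over all 12 the median was -0.63. Of the 10, 3 were lower past the fold (0.941% of all genes): Dntt, Satb1 and the GTPase Gimap6 at -2.76. The kinase gene Lck lay just outside at -1.9975, and Foxo1 was the one higher member at 0.15. Meis1, Egfl7, Gimap6 and Lck complete these counts and were chosen after their values were seen. With a pseudocount of 10, Cd34 was the one multipotency gene and Dntt the one early lymphoid gene past the fold. Satb1, Gimap6 and Myb were not past it on the log2 of the mean TPM. Of 12 B lineage genes 5 passed, none past the fold, with Blnk at 1.96 and Blk at 1.71, both signalling proteins downstream of the B cell receptor, and Ebf1 at -0.12. Ighm was high in both gates, with means of 10.69 in CDP and 10.81 in pre-DC. The summed B lineage list had a median of 2170 TPM in CDP and 2443.5 TPM in pre-DC.

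Myeloid genes were lower in pre-DC where they encode granule proteins. Of 12 granule genes 5 passed and 5 were lower, with a median of -1.03, and Mpo and the granule protease Prtn3 (-2.57) were past the fold (0.941% of all genes). Mpo, Prtn3, Ctsg and Anxa3 passed the filter through CDP alone, so their lower sign was largely set by it. Over all 12 granule genes the median was -0.25. On the log2 of the mean TPM the granule median was -5.29, with 4 past the fold, and with a pseudocount of 10 Prtn3 was no longer past it. Prtn3 was at 1 TPM or more in 46.6% of CDP and 2.86% of pre-DC, and Anxa3 was listed at 0 in all 70 pre-DC and found in 15.5% of CDP. Of 12 monocyte genes 10 passed, 6 higher and 4 lower, with a median of 0.20. They divided, with Ifitm3 at -2.93 and the lysozyme gene Lyz2 at -1.59 (-1.96 and -0.58) against the galectin gene Lgals3 at 1.68. Of 16 cDC genes 13 passed, 10 higher and 3 lower, and 0 were past the fold, with a median of 0.27. Of the 13, 11 were higher on the log2 of the mean TPM, 4 past the fold, with a median of 1.03. Clec9a, a receptor of the cDC1 branch and its precursors, led that list at 1.12, at 1 TPM or more in 3.45% of CDP and 28.6% of pre-DC.

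**Figure D5:**
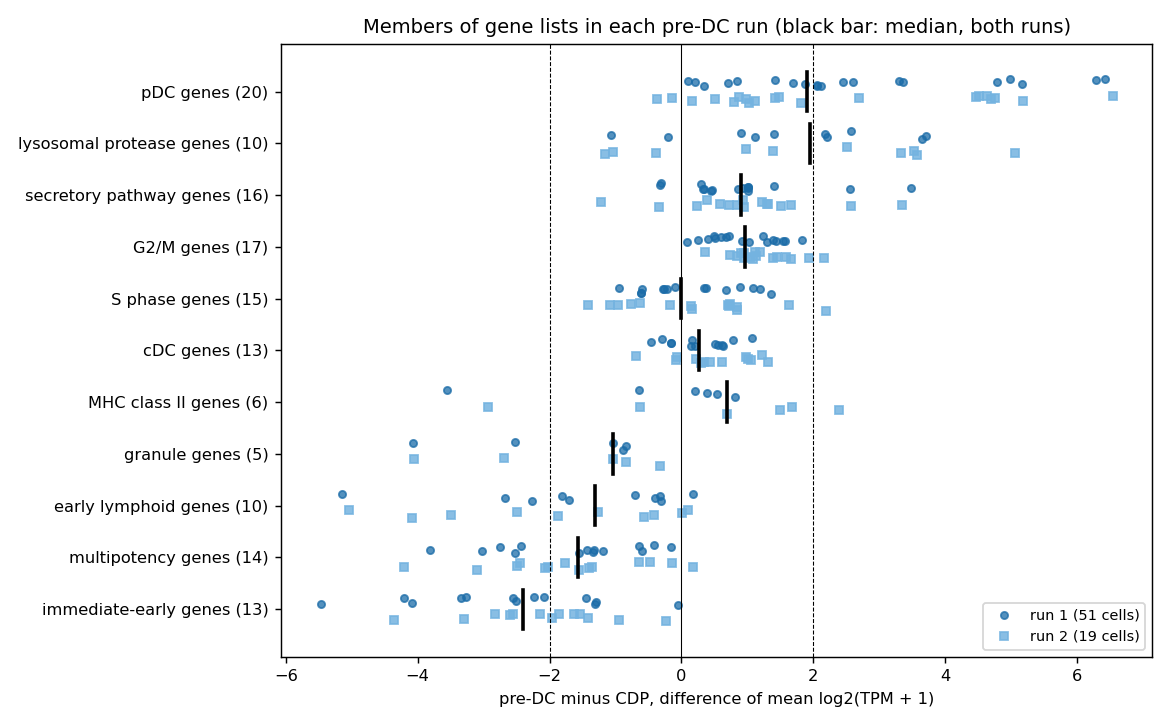
Difference (pre-DC minus CDP, log2(TPM + 1)) of each measured member of a part of the gene lists, against the same 58 CDP. Each member has 1 point for the pre-DC of run 1 and 1 for run 2. A black bar gives the median of the list for all pre-DC. The medians of the pDC and lysosomal protease lists lie highest (1.90 and 1.95). Those of the immediate-early, multipotency and early lymphoid lists lie lowest (-2.40, -1.57 and -1.30).

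Lysosomal and secretory genes were higher in pre-DC. Of 10 lysosomal protease genes 10 passed and 8 were higher, with a median of 1.95 (1.79 and 1.95). Past the fold were 5: Ctsh, Ctsb, and the cathepsins Ctss at 2.56, Ctsl at 2.55 and Ctsz at 2.51, the last 3 named after their values were seen, against 0.661% of all genes. With a pseudocount of 10 and on the log2 of the mean TPM, 2 of the 10 were past the fold. Legumain (Lgmn), an asparaginyl endopeptidase, went the other way at -1.06 and had a narrow spread in CDP, from 75.5 to 702 TPM with a median of 199, against 26.3 to 1021.8 TPM with a median of 69.7 in pre-DC. The pDC of the CDP run had the highest Lgmn mean of these groups, at 8.71 ± 1.12 against 7.67 ± 0.66 in CDP and 6.61 ± 1.37 in pre-DC. Of 16 secretory pathway genes 16 passed and 15 were higher, with a median of 0.90 (14 of 16 were higher in run 1 and 14 of 16 in run 2). Herpud1, of the degradation machinery of the endoplasmic reticulum, had medians of 41.98 TPM in CDP (0 to 2888) and 1169 TPM in pre-DC (1.16 to 6049) and differed by 3.44. The chaperone Hsp90b1, which folds Toll-like receptors and integrins, differed by 2.56, and these 2 were past the fold (0.661% of all genes). On the log2 of the mean TPM 0 of the 16 were past it and their median was 0.40. Sel1l was the lower member at -0.57.

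Cell cycle genes differed by phase. Of 17 G2/M genes 17 passed the filter and 17 were higher in pre-DC, 0 past the fold, with a median of 0.96 (0.93 and 1.12). Among cells with 3000 to 6000 genes the G2/M median was 0.39. Ube2c, which loads ubiquitin for the anaphase-promoting complex, differed by 1.76 and the survivin gene Birc5 by 1.67. The G2/M mean per cell had a median of 0.96 in CDP and 1.43 in pre-DC, and the upper quartiles were 1.62 and 4.13, so the gates differed more in their upper cells than at the median. Of 15 S phase genes 7 were higher and 8 lower, with a median of -0.0045. In run 1 7 were higher (median -0.09) and in run 2 9 were higher (median 0.17). On the log2 of the mean TPM 12 were higher, with a median of 0.19. The S phase mean per cell had a median of 4.02 in CDP, 4.59 in pre-DC and 1.40 in the pDC of the CDP run. Of 12 G1 genes 5 were higher and 7 lower, and D-type cyclins went opposite ways. Ccnd1 differed by 2.60 and was at 1 TPM or more in 34.5% of CDP and 68.6% of pre-DC. Ccnd2 differed by -4.08, at 87.9% and 41.4%, and the G1 kinase Cdk6 by -3.35, with medians of 716 TPM in CDP (0 to 2095) and 122 TPM in pre-DC (0 to 1448).

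Immediate-early genes, whose transcription starts quickly after a stimulus such as a growth factor or stress, were lower in pre-DC. Of 14 listed 13 passed and 13 were lower, 8 past the fold (0.941% of all genes), with a median of -2.40 (-2.51 in run 1 and -1.96 in run 2). Ier3 was at 0 in all pre-DC and passed the filter through CDP alone. Egr1 had a median of 706 TPM in CDP (0 to 5156) and 0.46 TPM in pre-DC (0 to 2263), and 70.7% of CDP against 22.9% of pre-DC reached 100 TPM. Its difference was -5.17, with -5.47 and -4.36 in the runs. Zfp36, which destabilises messenger RNA, differed by -3.87, and Jund was the least different member at -0.11, with a positive sign with a pseudocount of 10 and on the log2 of the mean TPM. The MAP kinase phosphatase gene Dusp2, one of the 12 largest deficits but no member of the list, differed by -4.11. The list mean per cell had a median of 5.19 in CDP, 2.13 in run 1, 2.93 in run 2 and 2.68 in the pDC of the CDP run. By this list mean the pDC of the CDP run lay between the 2 pre-DC runs, though not every member did, with Jun and Btg2 among those that did not. The part of the run in the difference was not tested. Of the 8 immediate-early genes past the fold, 4 remained so with a pseudocount of 10, 5 on the log2 of the mean TPM and 6 in run 2.

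Receptors for growth factors, homing and interferon differed less. Of 15 homing receptor genes 14 passed, 11 higher and 3 lower, 0 past the fold, with a median of 0.56. The integrin chains Itgb2 and Itgb7 differed by 1.82 and 1.74, and Itga4, the α4 integrin, by -1.03. Of 15 growth factor and cytokine receptor genes 14 passed, 9 higher and 5 lower, with a median of 0.35. The type I interferon receptor chain Ifnar2 led at 1.78, Csf2rb differed by 1.61, uncertain because of a near-identical copy, and the G-CSF receptor Csf3r by -1.25. Of 14 interferon-induced genes 10 passed, 5 higher and 5 lower, with a median of -0.19; Mx1 differed by 1.08 (0.50 and 2.63) and Xaf1 by -1.20. MHC class II accessory genes had 6 of 7 members measured, 4 higher and 2 lower. H2-Ob, the β chain of H2-O, which restrains peptide loading, was past the fold at -3.38 but not with a pseudocount of 10 or on the log2 of the mean TPM, at 79.3% of CDP and 21.4% of pre-DC, and its partner H2-Oa differed by -0.64.

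Transcripts of the sorted proteins were checked against the labels and are no findings. Itgax (CD11c) differed by 2.26 and was at 1 TPM or more in 12.1% of CDP and 51.4% of pre-DC. Flt3, positive in both gates, had means of 7.34 ± 2.28 in CDP and 5.38 ± 3.15 in pre-DC. Kit was in 43.1% of CDP and 11.4% of pre-DC, and Csf1r (CD115) in 25.9% and 12.9%. Some transcripts were found where the label gives the surface protein as absent. Transcripts and surface protein may differ, and the labels were kept. Il7r was in 56.9% of CDP, sorted as IL7R-. Sirpa (CD172α) was in 44.3% of pre-DC, sorted as CD172α-, and in 17.2% of CDP, and Ly6c2 reached 100 TPM in 50% of pre-DC, sorted as Ly6C-, and in 20.7% of CDP. The Ly6c2 mean was 5.94 in run 1 and 3.86 in run 2, with a mean of 10.30 ± 2.69 in the pDC of the CDP run. Ly6c1 was low in both, and reads of these near-identical copies may be divided between them.

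Class II chains set the 2 pre-DC runs apart, although all cells were sorted as MHCII-. H2-Ab1 had a median of 3.62 TPM in CDP (0 to 237.2), 0 in run 1 (0 to 8729) and 24.5 TPM in run 2 (11.5 to 9186), so its difference from CDP was -0.99 in run 1 and 3.44 in run 2. H2-Aa differed by -0.06 and 3.34, H2-Eb1 by -0.30 and 2.09, and the invariant chain Cd74 by 0.38 and 2.40. At 1 TPM H2-Ab1 was in 31.4% of run 1 and 100% of run 2. At 100 TPM the shares were 7.84% (2.18 to 18.9) and 26.3% (9.15 to 51.2), and for Cd74 they were 21.6% and 21.1%. The run difference in Cd74 thus lay below 100 TPM. Run 2 was shared with SiglecH-Ly6C- pre-DC; the part of the shared run was not tested.

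Several defining markers of other cells were at 0 in all cells, while mature B and plasma cell genes were found in part of both gates. The 5 basophil and mast cell genes were at 0 in all 128 cells. Gata1 and Klf1 of the erythroid list, Pf4 and Ppbp of platelets, S100a9, Camp, Ltf and Retnlg of neutrophils and C1qa, C1qb and C1qc of macrophages were at 0 in all of them too. Erythroid transcripts were at 1 TPM or more in 5 CDP and in 0 of 70 pre-DC (up to 4.29%), and platelet transcripts in 11 and 6. The mature B cell list was at a summed 1 TPM or more in 37 CDP and 55 pre-DC and at 100 TPM in 2 and 6, and had medians of 2.56 TPM in CDP and 4.46 TPM in pre-DC. The plasma cell list was at 1 TPM or more in 28 CDP and 20 pre-DC and reached a summed 100 TPM in 11 CDP and 8 pre-DC, and its measured member Sdc1 differed by -1.10.

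At the median, T and NK cell genes had higher summed levels than the mature B cell list and lower ones than the B lineage list. Of 9 T and NK cell genes, 3 passed the filter, and Cd3g, Gzma and Cd2 were at 0 in all 128 cells. The summed list ran up to 1243 TPM in CDP with a median of 71.2, and up to 1977 TPM in pre-DC with a median of 18.5. Nkg7, a protein of cytotoxic granules, was in 55.2% of CDP and 7.14% of pre-DC and differed by -3.36. Klrd1 (CD94), an NK receptor chain, was in 34.5% and 60% and differed by 2.22 (1.63 and 3.78 in runs 1 and 2). Within 1 list the 2 genes thus lay past the fold in opposite directions, though neither did with a pseudocount of 10, and the part of T or NK cells in these values was not tested.

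The members just inside the fold of 2 were Smdt1 at 2.0007 and Gm15387 at 2.01 and, among the lower ones, Cd1d1 and Gimap9, both at -2.01. Just outside lay Tifab at 1.997 and Zeb2 at 1.99, and Lck at -1.9975 and Elk3 at -1.9968. Between the pre-DC runs the largest gaps included Pafah1b3 at 2.89 and Ube2d3 at 2.70, higher in run 1, and Sat1 at -2.92 and Rgs18 at -2.90, higher in run 2. None of these 4 was among the 24 genes with the largest differences between the gates, for which the run 1 minus run 2 gap lay between -1.35 and 1.83.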

How the data were processed

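Single cells sorted from mouse bone marrow were captured on microfluidic chips, reverse transcribed with oligo(dT) primers and made into transposon-based libraries, per the labels' protocols. The authors deposited TPM for each gene symbol in each cell; the submitters' processing notes name RSEM 1.2.19 and GRCm38. Aligner, annotation and read filters were not given in the sources used here. Of 43280 symbols, 39469 (91.2%) matched GENCODE M21 on GRCm38, used for positions. TPM hold no counts, so no count model was run, and depth is unknown.

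Groups and runs came from the labels. Each gate is 1 sample, so no test was made. The difference per gene was that of the gate means of log2(TPM + 1) over genes reaching 1 TPM in 10% of either gate's cells. The fold rule was a difference of 2. Intervals of shares are exact (Clopper-Pearson, 95%); for a share of 0 the limit is what 3 counts allow. No doublet caller was run. The members and the 27 lists were chosen with earlier results of these data known. Named were the 12 largest differences in each direction (1 TPM in 50% of the higher gate, same sign in both runs; predicted, mitochondrial, ribosomal, sex-linked and antigen receptor genes and sort markers left out), the 5 markers, the 2 highest and 2 lowest members of each list, and all lineage regulators. Of the genes examined, 1 is not reported here. Genes named outside this rule were chosen after their values were seen. Alternatives were other pseudocounts, the log2 of the mean TPM, size factors, subsets of cells and single runs. The computation was tested on simulated data. Software was Python 3.11.15 with pandas 2.3.3, numpy 2.4.6, matplotlib 3.10.9 and scipy 1.17.1.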

Additional observations from a re-analysis of the deposited data

Results flagged for a closer look

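H2-Ab1, the β chain of an MHC class II molecule, differed from CDP in opposite directions in the 2 pre-DC runs, by -0.99 in run 1 and by 3.44 in run 2 on the log2(TPM + 1) scale. The difference between the runs was not tested, since each run of a gate is 1 sample.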

How the results depend on the processing

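The counts past the fold depended on the scale. Genes past the fold made up 0.661% (higher in pre-DC) and 0.941% (lower) of the 13171 measured. With a pseudocount of 0.1 the shares were 1.92% and 3.12%, with a pseudocount of 10 they were 0.228% and 0.167%, and on the log2 of the mean TPM, which moved the median of all genes by 0.12, they were 4.46% and 5.12%. With the pre-DC of run 2 alone 1.28% were higher. At 1 TPM instead of 100 TPM, 75.9% of CDP and 98.6% of pre-DC had 3 or 4 markers. Without Siglech, a count chosen after seeing the data, 29.3% and 92.9% had 2 or 3 of the other 3 at 100 TPM. The cause of these shifts was not tested. The medians of the pDC, multipotency, early lymphoid, immediate-early, lysosomal protease and G2/M lists kept their sign and moved by less than the spread over cells under every alternative run. Those of the pDC list ran from 1.35 to 2.48, of the immediate-early list from -3.56 to -1.33, of the multipotency list from -2.46 to -0.73, of the early lymphoid list from -2.05 to -0.63, of the lysosomal protease list from 1.29 to 2.25 and of the G2/M list from 0.39 (cells with 3000 to 6000 genes) to 1.52. No named gene past the fold changed sign. Leaving out cells under 2000 genes changed nothing because no cell was that low. No paired analysis was possible because replicate numbers only name cells and no result comes from a test. The unknown depth leaves the precision of single values unknown, and with 1 sample a gate the spread between animals was not measured.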

Other observations

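Genes present in at least 50% of the cells of one gate and in fewer than 10% of the other were listed by a rule chosen after the values were seen. At 1 TPM they were Gprc5c, an orphan receptor (3.45% of CDP and 78.6% of pre-DC), and Nlgn1, a neuronal adhesion gene (0 of 58 CDP, which allows a share of up to 5.17%, and 51.4% of pre-DC), in pre-DC, and Cd81, Mpo, Myc, Nkg7 and Wfdc17 in CDP. Cd81, a tetraspanin, was in 53.4% of CDP and 1.43% of pre-DC and differed by -3.15, with -3.12 in run 1 and -3.25 in run 2. Wfdc17 was in 51.7% and 8.57%. The rule used all pre-DC, and some genes were outside its limits in a single run. In run 2 Nlgn1 was in 42.1% of pre-DC, and Myc and Wfdc17 were each in 15.8%. At 10 TPM Ifi30, Prtg, Spib and the long noncoding transcript Mir124-2hg met the rule in pre-DC and Marcksl1 in CDP. Mir124-2hg was at 10 TPM or more in 3.45% of CDP and 92.9% of pre-DC, and it differed by 3.20 with an SD over cells of 0.97 in CDP and 0.82 in pre-DC. In the pDC of the CDP run its mean was 3.98. Ifi30, a lysosomal thiol reductase, differed by 3.55.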
